A study of Danio rerio with 55 samples.

Results

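Of the 32266 genes in the RNA count files, 104 (0.322%) were measured at 1 CPM or more at 0 and 3.3 hours post fertilization (hpf) in zebrafish embryos labelled MZezh2-/- and at a low level in wild-type embryos at all 3 stages examined. They were chosen by their measured levels in CPM, the reads of a gene per 1000000 reads assigned to genes in the same library. The mean of the wild-type libraries had to be under 1 CPM at 0, 3.3 and 24 hpf, and the mean of the mutant libraries at 0 and 3.3 hpf had to be at least 1 CPM and at least 4 times the wild-type mean, with at least 4 mutant libraries above all wild-type ones at each early stage. The genes were not absent at 24 hpf. Between 81 and 98 of them had at least 1 read in each wild-type library of that stage, so they are described here as genes of low level at 24 hpf and not as silent genes. A symbol was found for 100 of the 104, and symbols are written as the gene name table gives them, some in capitals.

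The study compared whole zebrafish embryos of a mixed TU/TLF background, wild type or MZezh2-/-, which lack Ezh2 from both the mother and their own genome. RNA depleted of ribosomal RNA was sequenced at 0 hpf (5 wild-type libraries and 6 of mutants), at 3.3 hpf (5 of wild type, 7 of mutants) and at 24 hpf (6 of wild type, 7 of mutants). Mutant embryos came from crosses between fish whose germ line carried the nonsense allele hu5670 after germ cell transplantation, and wild-type embryos from crosses between transplanted fish with a wild-type germ line, so the bodies of the parents were mostly wild-type. Each library held a pool of embryos, and p-values measure the spread between such pools. A level in bulk RNA cannot tell fewer expressing cells from less RNA per cell.

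Ezh2 is the catalytic subunit of Polycomb repressive complex 2, which places trimethylation on lysine 27 of histone H3, a mark of repressed genes. The fertilized egg contains RNA made by the mother during oogenesis, and the zygotic genome becomes active only later, around the time the second stage was sampled. Transcripts present at 0 hpf are therefore regarded as maternal, and most maternal RNA is cleared as the embryo's own transcription takes over. The 104 genes include genes of hormone receptors, ion channels, neurotransmitter receptors and transporters, and proteins of the immune response.

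Several libraries stood apart in ways that touch these genes. The library totals ranged from 2736282 to 24041447 gene counts, so 1 read was worth 0.0416 to 0.365 CPM. The level of ezh2 itself was 194 to 409 CPM in wild-type libraries at 0 hpf, but in libraries labelled mutant it was 2.83 to 4.58 CPM in replicates 1, 2 and 4 and 271 to 368 CPM in replicates 3, 5 and 6. At 3.3 hpf it was 3.75 to 6.28 CPM in mutant replicates 1, 2, 4 and 5 and 195 to 254 CPM in replicates 3, 6 and 7, beside 228 to 497 CPM in wild type. At 24 hpf it was 37.0 to 47.5 CPM in mutant replicates 1 to 4 and 106 to 126 CPM in replicates 5 to 7, beside 106 to 218 CPM in wild type. Over the early mutant libraries together, 47.7% of the stranded counts of ezh2 were antisense. The unstranded levels given here, and the split at 100 CPM, include these. The allele is a nonsense mutation and the counts carry no sequence, so the ezh2 level does not test the genotype, but the main counts are given with and without the libraries labelled mutant that had ezh2 over 100 CPM. Without them the rule found 77 genes, 71 of them among the 104, when all remaining libraries (3 at 0 hpf and 4 at 3.3 hpf) had to be above wild type. In 6 libraries more than 5% of stranded counts were antisense, namely mutant replicate 4 at 0 hpf (10.8%), mutant replicates 4 and 5 at 3.3 hpf (18.8% and 9.59%), wild-type replicate 3 at 24 hpf (6.27%) and mutant replicates 3 and 4 at 24 hpf (7.90% and 10.1%). At 24 hpf, some libraries of each genotype were made with another kit, and the labels do not say which.

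The 104 genes were together about an order of magnitude more abundant in early mutant libraries than in wild type. Their summed level was 24.8 to 35.7 CPM in the 5 wild-type libraries at 0 hpf, and 237, 306 and 447 CPM at the lowest, median and highest of the 6 mutant libraries. At 3.3 hpf it was 23.2 to 30.8 CPM in wild type and 215, 273 and 426 CPM at the lowest, median and highest mutant library. The genotypes were far apart at both stages, as the rule that chose the genes requires. At 24 hpf the sum was 35.9, 51.0 and 66.9 CPM at the lowest, median and highest wild-type library and 58.1, 68.0 and 79.2 CPM in mutants. The genotypes overlapped only by wild-type replicate 3, at 66.9 CPM, where 34.7% of the stranded counts of these genes were antisense. The next highest wild-type library was at 53.55 CPM. Mutant replicates 3 and 4, the highest at 77.1 and 79.2 CPM, had 28.2% and 27.2% of these counts antisense. The rule capped the wild-type mean at this stage, which favours higher sums in mutants.

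**Figure D1:**
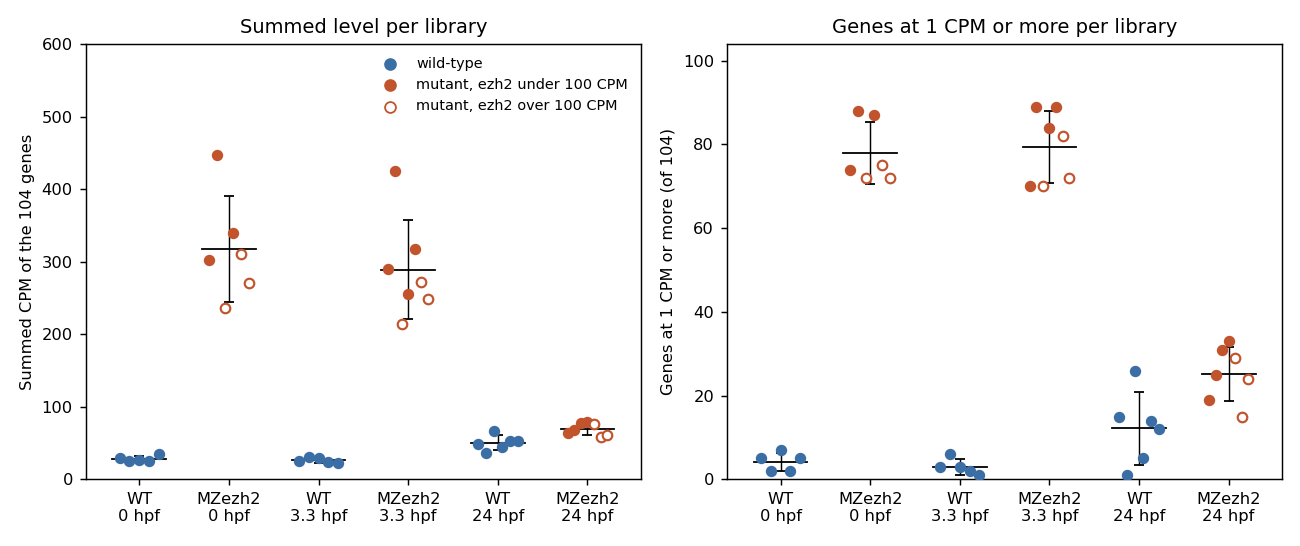
Left, summed level in CPM of the 104 genes in each library; right, number of the 104 genes at 1 CPM or more. Points are libraries grouped by genotype and stage, and lines and bars are the mean and SD. Open points are libraries labelled mutant with ezh2 over 100 CPM. In the left panel all early mutant libraries lie at or above 215 CPM. There, at 24 hpf, wild-type replicate 3 at 66.9 CPM is the only wild-type library above the lowest mutant library at 58.1 CPM.

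Single genes showed how broad the early difference was. Between 72 and 88 of the 104 genes reached 1 CPM in a mutant library at 0 hpf, against 2 to 7 in a wild-type library, and at 3.3 hpf the ranges were 70 to 89 and 1 to 6. For 60 genes at 0 hpf all mutant libraries lay above all wild-type ones, where 4.88% of all genes with a read had that order, and for 66 at 3.3 hpf, where 4.15% had it. By edgeR's quasi-likelihood test 59 of the 104 (75 were tested) were called higher in mutants at 0 hpf and 0 lower, where 6.06% of all genes tested were called higher and 0.17% lower, and 68 (87 were tested) higher and 0 lower at 3.3 hpf, where 5.88% were called higher and 0.178% lower. The rule used these contrasts, so the counts describe the genes and test nothing. The median over genes of the ratio between mutant and wild-type mean was 10.7 at 0 hpf and 11.4 at 3.3 hpf, and 10.8 and 12.2 with genes without any wild-type read set to a bound of 3 reads over the wild-type libraries.

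The early levels were then set side by side in the kinds of library labelled mutant. Each kind held 3 libraries at 0 hpf and the rule asked for at least 4 above wild type, so at least 1 of each kind had to be above, and the values reuse those that chose the genes and test nothing. In those with ezh2 over 100 CPM the summed level was 237 to 310 CPM at 0 hpf and 215 to 273 CPM at 3.3 hpf, against 302 to 447 and 255 to 426 CPM in those with less ezh2. The mean of the libraries with ezh2 over 100 CPM was at least 4 times the wild-type mean for 88 of the 104 genes at each early stage, and that of the others for 99 at 0 hpf and 102 at 3.3 hpf. At 0 hpf 74 genes, and at 3.3 hpf 75, had the higher mean in the libraries with less ezh2. The libraries fell into fully separate ranges in that direction for 11 and 7 genes, and in the other direction for 1 and 0. The share of all genes with such ranges was not counted. The libraries with less ezh2 include replicates 1 and 2 at both stages. Replicate 2 held the highest value for 40 genes at 0 hpf and 35 at 3.3 hpf. The part of the ezh2 level in these differences was not tested.

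**Figure D2:**
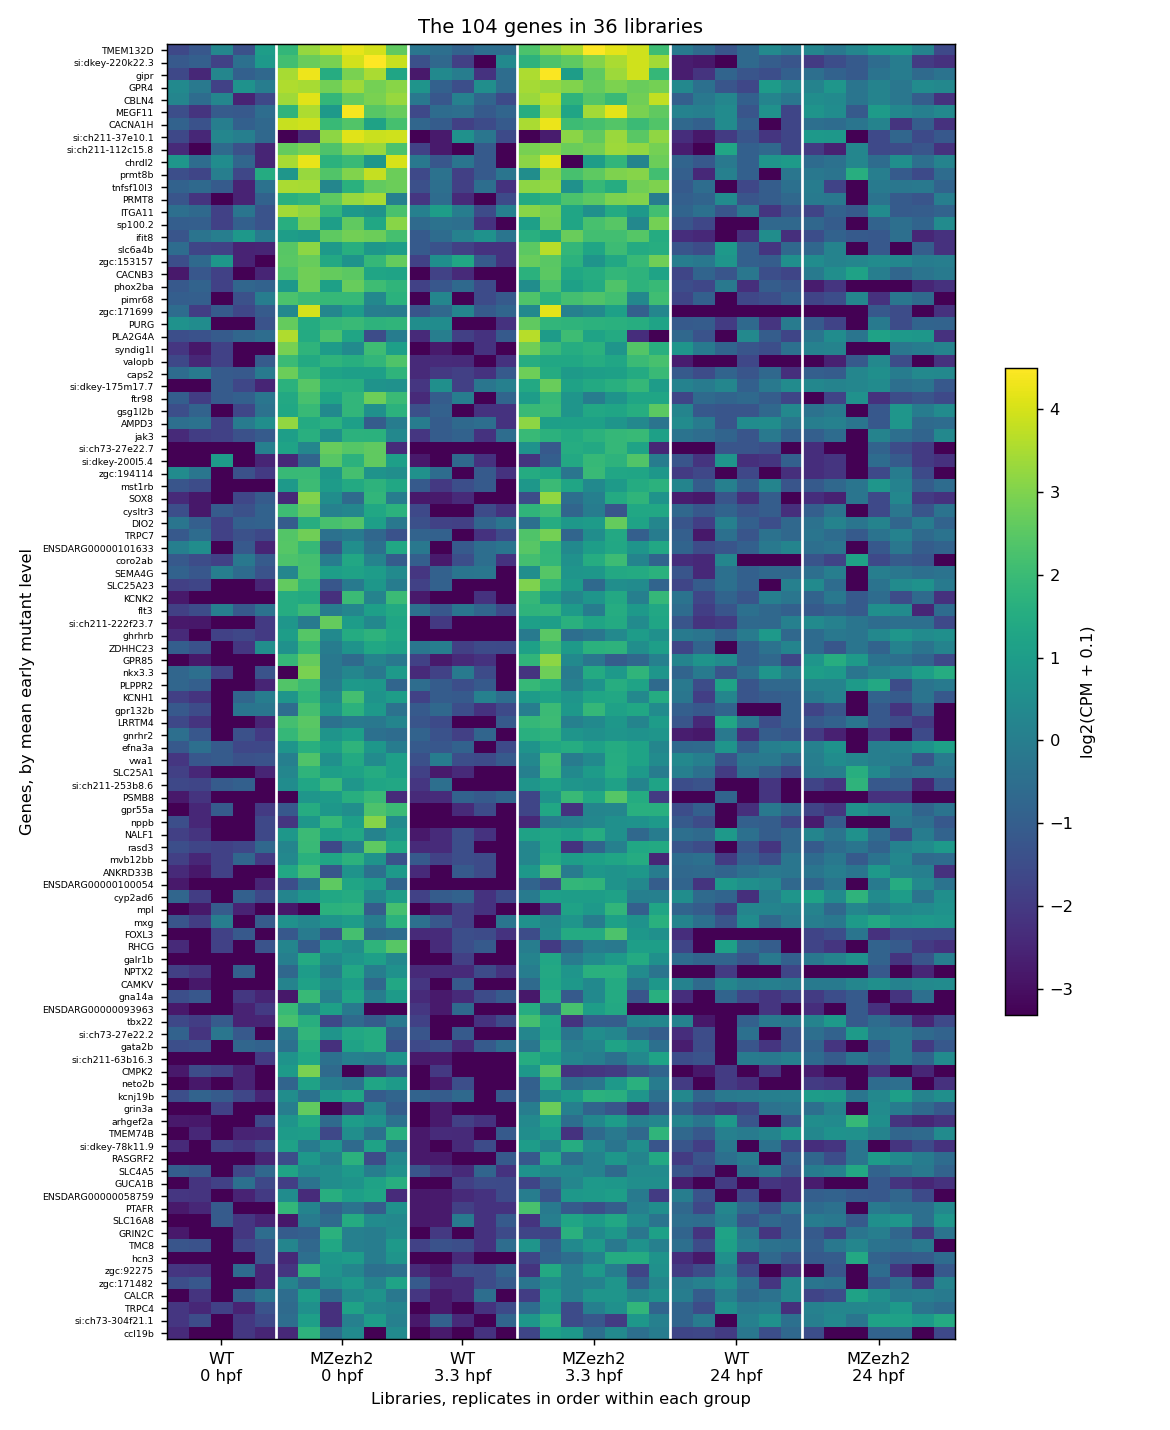
Level of each of the 104 genes (lines, ordered by the mean of the early mutant levels) in each of the 36 libraries (columns, by group), as log2(CPM + 0.1). The mutant blocks at 0 and 3.3 hpf stand out against the wild-type blocks for most genes, with clear differences between mutant libraries. The blocks at 24 hpf are at low levels in both genotypes.

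Among receptors, gipr (ENSDARG00000025478), the receptor of the gut hormone GIP, was at 0.224, 0.083, 1.11, 0.428 and 0.523 CPM in wild-type libraries at 0 hpf. In mutants it was 2.31, 9.28 and 19.6 CPM at the lowest, median and highest library, and 1.94, 10.1 and 21.9 CPM at 3.3 hpf. All mutant libraries were above all wild-type libraries at both stages, and the means differed by 19.2 times at 0 hpf and 17.4 times at 3.3 hpf. GPR4 (ENSDARG00000079479), a receptor that senses protons and lies next but 1 to gipr in the order of the gene list, had the steadiest level of the whole set at 0 hpf. It was 1.21, 0.790, 0.185, 1.5 and 0.896 CPM in wild type at 0 hpf and 7.06, 9.44 and 11.7 CPM at the lowest, median and highest mutant library, a coefficient of variation of 21.6% among mutants.

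Peptide hormone receptors without any wild-type read at a stage included galr1b, a galanin receptor, and ghrhrb, a receptor of growth hormone releasing hormone. For galr1b all 5 wild-type libraries were at 0 reads at 0 hpf, and mutants were at 0.945, 1.43 and 2.62 CPM at the lowest, median and highest library. The mutant mean was at least 42.4-fold higher, against a floor of 3 reads over the wild-type group. For ghrhrb the wild-type libraries were at 0 reads at 3.3 hpf, and mutants at 0.606, 1.19 and 5.50 CPM. Its mutant mean, raised by the highest library, was at least 40.6-fold higher against a floor of 3 reads over the wild-type group of that stage. Both genes had reads in every wild-type library at 24 hpf, with medians of 0.473 CPM for galr1b and 0.784 CPM for ghrhrb. Other receptors in the set were gnrhr2 for gonadotropin releasing hormone, with a mutant median of 1.80 CPM at 0 hpf against 0.285 CPM in wild type, and CALCR for calcitonin, with 1.00 CPM against 0.125 CPM. The genotypes overlapped for both at 0 hpf. The lowest mutant library was at 0.578 CPM for gnrhr2 and 0.552 CPM for CALCR, and the highest wild-type library at 0.627 and 0.747 CPM.

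Ion channel genes gave 8 of the 104, out of 238 channel genes in the files (3.36%). CACNA1H (ENSDARG00000099708), the pore of a T-type calcium channel, was at 0.448, 0.291, 0.924, 0.428 and 0.523 CPM in wild type at 0 hpf, and at 2.18, 4.75 and 15.1 CPM at the lowest, median and highest mutant library. Mutant replicates 1 and 2 carried 14.3 and 15.1 CPM and the other 4 at most 5.06 CPM, so the level differed between groups of mutant libraries by more than it did within them. CACNB3, an accessory subunit of voltage-gated calcium channels, was at 2.22, 5.19 and 6.82 CPM in mutants at 0 hpf and at most 0.333 CPM in wild type. KCNK2, a background potassium channel, had a single read over all 5 wild-type libraries at 0 hpf and a mutant median of 2.66 CPM. TRPC7, a cation channel of the TRPC family, had a mutant median of 0.742 CPM at 0 hpf and a highest library of 6.92 CPM, beside at most 0.582 CPM in wild type. The remaining channel genes were KCNH1, kcnj19b, hcn3 and TRPC4, with mutant means between 1.08 and 2.34 CPM at 0 hpf.

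Neurotransmitter receptor genes gave 2 of the 104, out of 147 in the files (1.36%). The NMDA receptor subunit gene grin3a was carried by a single library, with 6.06 CPM in mutant replicate 2 at 0 hpf and a median of 0.643 CPM. GRIN2C, another subunit of that receptor, had a mutant median of 0.927 CPM and overlapped with wild type, where 1 library reached 0.598 CPM and the lowest mutant library was at 0.386 CPM. Other genes known from neurons were not counted as a list. CBLN4, a secreted organizer of synapses, was at 3.53, 8.53 and 17.6 CPM at the lowest, median and highest mutant library at 0 hpf and at most 1.11 CPM in wild type. MEGF11, a membrane protein with EGF-like repeats that spaces retinal neurons in mouse, was at 1.77, 5.82 and 20.9 CPM in mutants and at most 0.598 CPM in wild type. Both sets of libraries were apart for each of these genes. The serotonin transporter gene slc6a4b had mutant values of 1.67, 2.4 and 8.92 CPM at 0 hpf and at most 0.582 CPM in wild type. The adhesion gene LRRTM4, which acts at excitatory synapses, had a mutant median of 0.940 CPM and a wild-type maximum of 0.224 CPM.

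TMEM132D (ENSDARG00000102759), which encodes a membrane protein, had the highest early mutant level of the 104 genes in CPM, a unit that does not correct for gene length. Wild-type libraries at 0 hpf were at 0.224, 0.333, 1.11, 0.285 and 1.94 CPM, and mutants at 3.52, 11.6 and 18.3 CPM at the lowest, median and highest library. No mutant library at 0 or 3.3 hpf was as low as the highest wild-type library. The gene si:ch211-112c15.8 (ENSDARG00000089868), whose role is not annotated, was at 0.090, 0, 0.555, 0.285 and 0.075 CPM in wild type at 0 hpf and at 4.81, 6.81 and 9.61 CPM in mutants. Its mutant mean was 34.2 times the wild-type mean at 0 hpf and 66.6 times at 3.3 hpf, where its coefficient of variation was the lowest of the set (16.9%). The gene si:dkey-220k22.3, also without an annotated role, reached 27.2 CPM in 1 mutant library at 0 hpf, with a median of 10.9 CPM and a wild-type maximum of 1.79 CPM.

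**Figure D3:**
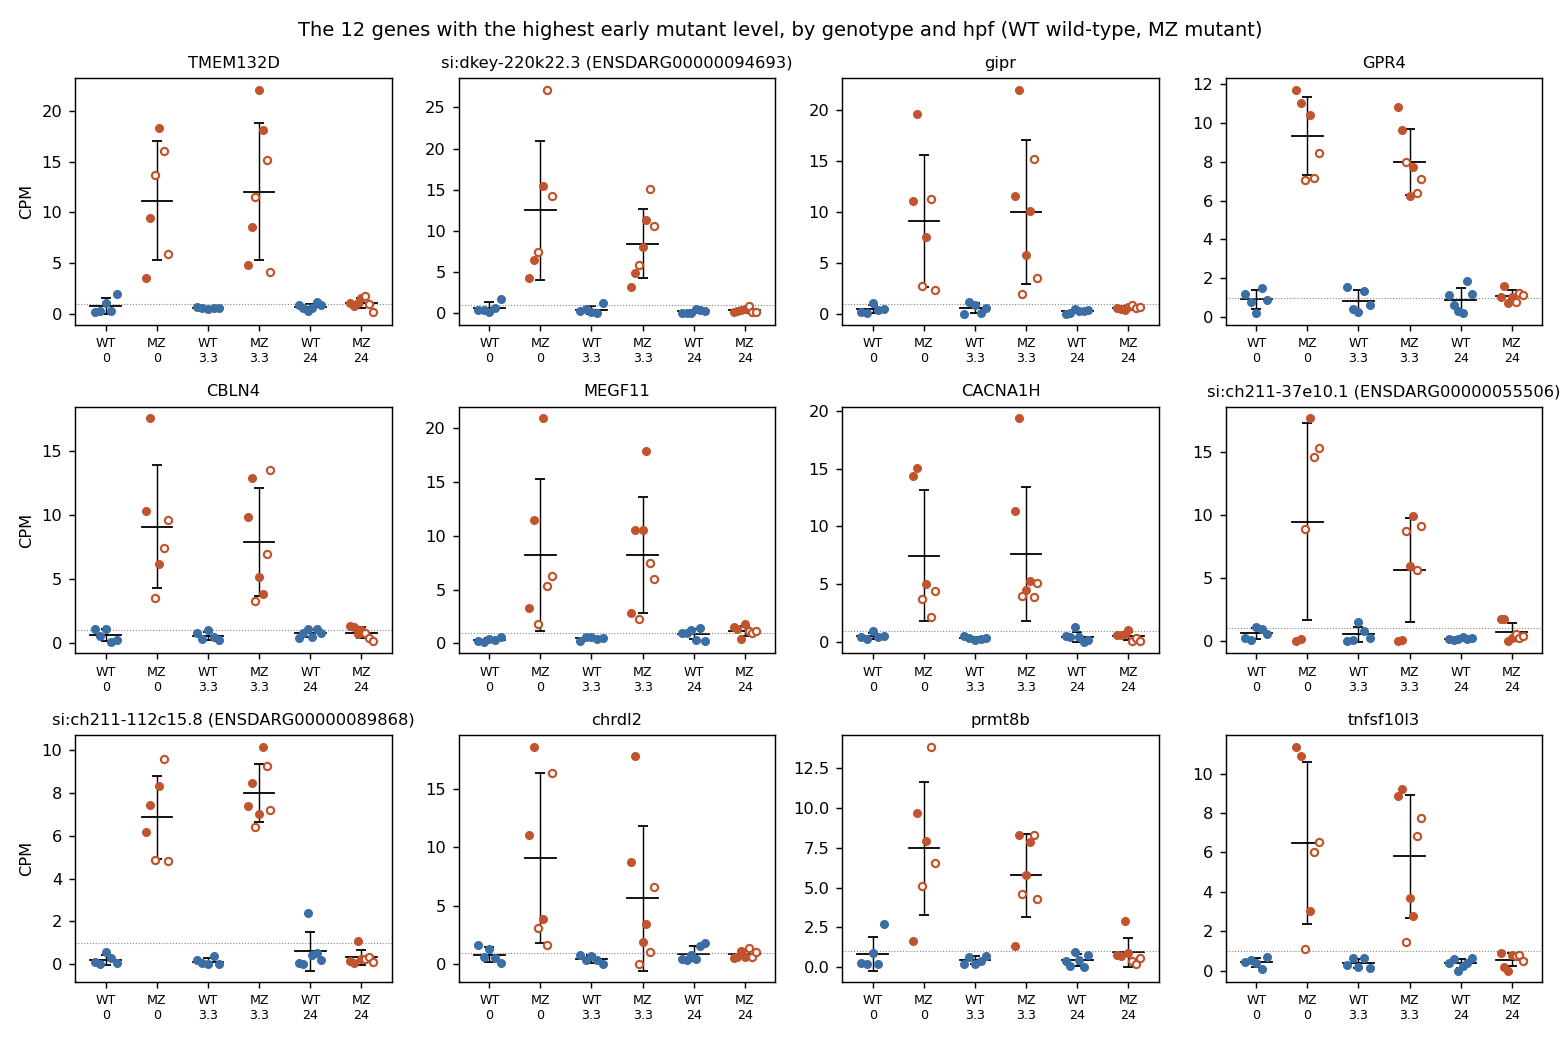
Level in CPM of the 12 genes with the highest early mutant level, per library, by genotype (WT wild type, MZ mutant) and hpf; lines and bars are mean and SD, the dotted line is 1 CPM, and open points are libraries labelled mutant with ezh2 over 100 CPM. GPR4 and si:ch211-112c15.8 vary little among early mutants, while ENSDARG00000055506 is near 0 in 2 early mutant libraries per stage and high in the rest, and all 12 are near or under 1 CPM at 24 hpf in most libraries.

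Of 344 developmental transcription factor genes counted by symbol, 5 (1.45%) were among the 104. SOX8, a SoxE factor, was at 0.086, 1.1 and 7.92 CPM at the lowest, median and highest mutant library at 0 hpf, and replicate 2 held the highest value at both early stages (9.33 CPM at 3.3 hpf). The homeobox gene nkx3.3 was also highest in replicate 2, with 7.49 CPM at 0 hpf and no read in replicate 1. FOXL3, known from medaka as a switch of germ cell sex, had a mutant median of 0.545 CPM at 0 hpf and 1.68 CPM at 3.3 hpf, and the T-box gene tbx22 had 0.659 and 1.05 CPM. The remaining member, gata2b, which acts in blood stem cell formation in zebrafish, had 33.5% of its stranded counts antisense in early mutants, and the unstranded counts include these. Outside the list, phox2ba (ENSDARG00000075330), a homeodomain factor of autonomic neurons, was at 1.72, 3.74 and 6.68 CPM in mutants at 0 hpf against 0.358, 0.458, 0.185, 0.50 and 0.448 CPM in wild type. The mutant libraries of phox2ba lay above all wild-type ones at both early stages.

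Signalling ligand genes gave 2 of the 104, out of 160 in the files (1.25%), and cytokine and immune genes 3 out of 422 (0.711%). The BMP antagonist gene chrdl2 varied most among the 12 highest genes at 3.3 hpf, from 0 to 17.9 CPM with a median of 3.42 CPM, while wild type reached 0.778 CPM. The guidance genes SEMA4G and efna3a had mutant medians of 1.95 and 1.88 CPM at 0 hpf against 0.448 and 0.358 CPM in wild type. The TNF family ligand gene tnfsf10l3 was at 1.1, 6.29 and 11.4 CPM at the lowest, median and highest mutant library at 0 hpf, and at most 0.672 CPM in wild type. The interferon-induced gene ifit8 had the reverse library pattern of CACNA1H, with 1.93 and 1.77 CPM in mutant replicates 1 and 2 and 4.43 to 6.98 CPM in the other 4, beside at most 1.71 CPM in wild type. The chemokine gene ccl19b was just inside the rule, with mutant means of 1.06 and 1.04 CPM, and ftr98, of a large family of fish TRIM genes in which near-identical copies can share reads, had medians of 3.69 and 1.92 CPM. The cytokine receptor genes flt3 and mpl and the kinase gene jak3, which acts below cytokine receptors, were named for their roles after their values were seen. At 0 hpf flt3 and jak3 had mutant medians of 2.33 and 2.47 CPM, against at most 0.924 and 0.373 CPM in wild type. The lowest mutant library of flt3 was at 0.883 CPM. For mpl, mutant replicates 1, 2 and 5 were at 0.043, 0 and 0.384 CPM and replicates 3, 4 and 6 at 3.09, 3.29 and 4.43 CPM. Wild type reached 0.37 CPM for mpl.

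Markers of other cell types were measured beside these genes. Of 11 listed leukocyte markers 8 were in the files, none of them among the 104, and their summed level was 4.25 to 5.38 CPM in wild type and 14.0 to 30.1 CPM in mutants at 0 hpf. At 3.3 hpf the ranges were 3.61 to 8.56 and 17.3 to 34.6 CPM. Most of the sum was CORO1A, an actin-binding protein, at 1.85 to 4.00 CPM in wild type and 11.8 to 25.3 CPM in mutants at 0 hpf. The means of cd4-1 (0.381 CPM in wild type and 1.57 CPM in mutants), ptprc (0.096 and 0.523 CPM) and lck (0.68 and 1.14 CPM) were also higher in mutants at 0 hpf. So were the very low ones of cd8a (0.015 and 0.096 CPM), cd79a (0 and 0.046 CPM) and ighm, a marker of B cells (0 and 0.024 CPM). Only lyz, a marker of macrophages and neutrophils, had the other direction at 0 hpf, with 0.901 CPM in wild type and 0.318 CPM in mutants. At 3.3 hpf the mean of lyz was higher in mutants (0.061 and 0.179 CPM). By edgeR 2 of the 3 leukocyte markers tested were called higher at 0 hpf and 1 of 3 at 3.3 hpf. The sums of the other 10 lists overlapped between genotypes at both early stages, but several of their genes had higher means in mutants. Liver markers summed to 0.36 to 3.21 CPM in wild type and 0.99 to 10.95 CPM in mutants at 0 hpf, with means of 0.708 and 3.84 CPM for tfa and 0.262 and 1.42 CPM for apoa1b. Red blood cell markers summed to 0.12 to 0.37 and 0.17 to 3.1 CPM, with 0.181 and 0.77 CPM for alas2. The insulin gene ins had means of 0.511 and 2.13 CPM and the skin keratin gene krt4 of 3.41 and 11.6 CPM. Other genes of these lists had lower means in mutants at 0 hpf. They were prss1 (3.09 and 2.64 CPM), of the same list as ins, ckma of muscle (2.31 and 1.48 CPM), gap43 of neurons (0.31 and 0.128 CPM) and SPATA18 of testis (14.8 and 13.2 CPM). The part of RNA from any of these cell types in the early excess was not tested. Summed oocyte and germ line markers overlapped between genotypes, with 4056 to 4692 CPM in wild type and 3073 to 4552 CPM in mutants at 0 hpf. Ovarian somatic markers also overlapped (320 to 591 and 391 to 611 CPM). Most of that sum was CYP17A1 (means of 156 CPM in wild type and 200 CPM in mutants) and an entry of CYP11A1 (269 and 276 CPM). The remaining ovarian entries had low means, such as 0.336 and 1.145 CPM for gsdf and 0.372 and 0.928 CPM for STAR. These means were higher in mutants for all but the other CYP11A1 entry (0.122 and 0.103 CPM). Of 8 listed neuron markers 3 were in the files, and their sums overlapped too, at 0.15 to 0.94 CPM in wild type and 0.30 to 1.43 CPM in mutants.

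Transporters and enzymes completed the set of known roles. Of 444 solute carrier genes 5 (1.13%) were among the 104, and besides slc6a4b these were the mitochondrial carriers SLC25A23 and SLC25A1, the bicarbonate transporter SLC4A5 and the monocarboxylate transporter SLC16A8. SLC25A23 was at 0.331, 1.27 and 6.06 CPM at the lowest, median and highest mutant library at 0 hpf, against at most 0.208 CPM in wild type. The arginine methyltransferase genes prmt8b and PRMT8 were both present, with mutant medians of 7.24 and 4.59 CPM at 0 hpf. Related copies such as these may share reads where their sequences are alike. The cytochrome P450 gene cyp2ad6 had an early mutant median of 1.75 CPM against 0.224 CPM, and PLA2G4A, a phospholipase that releases arachidonic acid, ranged from 0.256 to 11.9 CPM in mutants at 0 hpf.

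Mutant libraries differed from each other in which of the 104 genes they carried. The coefficient of variation over mutant libraries had a median of 67.2% at 0 hpf (21.6% to 170%) and 57.6% at 3.3 hpf (16.9% to 179%). Only 36 genes at 0 hpf and 34 at 3.3 hpf were at 1 CPM or more in every mutant library, and 30 and 12 were so in 3 or fewer. The most uneven genes at 0 hpf were CMPK2 (7.54 CPM in replicate 2 and a median of 0.420 CPM) and zgc:171699 (16 CPM in replicate 2 and a median of 1.13 CPM). Replicate 2 held the highest value for 40 of the 104 genes at 0 hpf and for 35 at 3.3 hpf. Replicates 1 and 2 were both above all later mutant libraries for 22 genes at 0 hpf and 19 at 3.3 hpf, with 17 genes in common, and both below them for 9 genes at each stage. With so few libraries, some genes can show either order by arrangement alone. The share of all genes with either order was not counted, so the counts are not read as particular to the 104. A gene without an annotated role, ENSDARG00000055506, was the clearest of the latter, at 0 and 0.095 CPM in replicates 1 and 2 at 0 hpf and at 8.83, 17.7, 14.6 and 15.3 CPM in replicates 3 to 6.

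The pattern over the genes was most alike between 0 and 3.3 hpf in particular pairs of mutant libraries. Pearson's r of log2(CPM + 0.1) over the 104 genes was 0.959 between the libraries numbered 1 at both stages and 0.947 between those numbered 2. It was 0.837 between replicate 4 at 0 hpf and replicate 5 at 3.3 hpf, 0.782 between 5 and 6, and 0.868 between 6 and 7. Over pairs with different numbers the median was 0.267 and the range -0.06 to 0.868, and over pairs with the same number it was 0.732 and 0.491 to 0.959. The points of each r are genes of 2 libraries that share the mutant genotype, and the r is a description. The labels do not say which clutches or parents the libraries came from. Across the genes, the mutant means at 0 and 3.3 hpf had an r of 0.914.

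**Figure D4:**
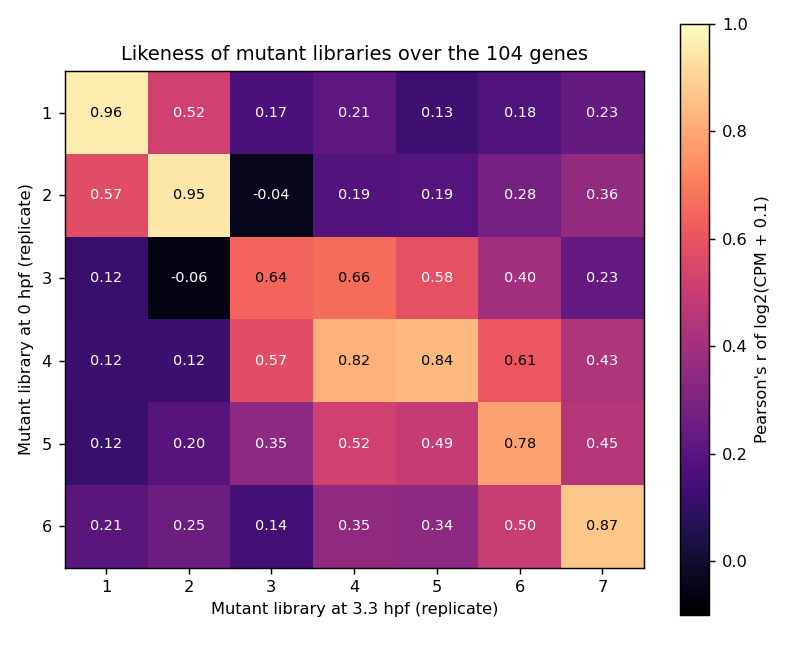
Pearson's r of log2(CPM + 0.1) over the 104 genes between each mutant library at 0 hpf (lines) and each at 3.3 hpf (columns), by replicate number. The largest values are 0.96 and 0.95 for replicates 1 and 2 with their own number, followed by 0.87 for replicate 6 with 7.

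Between 0 and 3.3 hpf in mutants, no difference in the 104 genes passed the test. The fit held stage alone, so the spread between mutant libraries counted as error. The median coefficient of variation over these was 67.2% at 0 hpf and 57.6% at 3.3 hpf. Levels that did not pass are therefore not shown to be equal. The rule set the same minimum for the mutant mean at both stages, which leaves out genes with a low level at either, so the test draws on values that chose the genes. Of the 103 tested with edgeR's quasi-likelihood test, 0 passed an adjusted p of 0.05 with a log2 change of at least 1 in either direction, where 0.459% of all genes tested were called higher and 0.689% lower. At an unadjusted p under 0.05, 0 were higher and 1 was lower, where 1849 of all 16983 genes tested were under that limit in either direction. DESeq2 also called 0, with 2 genes at an unadjusted p under 0.05. The single one by edgeR was ftr98, at 2.21, 3.69 and 6.79 CPM at the lowest, median and highest library at 0 hpf and 0.870, 1.92 and 3.68 CPM at 3.3 hpf, a log2 difference of -0.95 ± 0.36 (SE, adjusted p = 0.289). Without the filter on low counts edgeR called 0 of the 104, where 0.409% of all genes were called higher and 0.388% lower. Fitted log2 differences ranged from -1.40 for nppb, a natriuretic peptide gene, to 0.89 for FOXL3, with a median of -0.10 over the genes tested and -0.01 over all genes.

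Between 3.3 and 24 hpf in mutants, 76 of the 104 genes were tested. Of these 49 fell (47.1% of all 104, untested ones included) and 0 rose, where 29.4% of all genes tested were called lower and 35.2% higher. Another 27 were tested and not called and 28 were too low to be tested. The rule set a minimum for the mutant mean at 3.3 hpf and none at 24 hpf, which favours falls, and CPM is relative to all other RNA of the stage. The cap on the wild-type mean at 24 hpf favours falls too, as few of all genes were called different between genotypes then. DESeq2 called 67 lower and 0 higher, and edgeR without the filter on low counts called 69 of 104 lower (66.3%, against 22.3% of all genes) and 0 higher, where 33.1% of all genes were called higher. Of the 104, 0 were higher at an unadjusted p under 0.05 by edgeR. Without the libraries labelled mutant that had ezh2 over 100 CPM, edgeR called 53 of 89 tested lower, 44 of them among the 49. The mutant libraries at 3.3 hpf were all above those at 24 hpf for 35 of the 104 genes, an order that 20.7% of all genes with a read had, and the reverse order held for 0, where 20.5% of all genes had it.

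The largest of these falls was that of phox2ba, from 1.32, 3.26 and 5.01 CPM at the lowest, median and highest mutant library at 3.3 hpf to 0, 0.052 and 0.130 CPM at 24 hpf. It fell by 5.22 ± 0.51 on the log2 scale (SE, edgeR adjusted p = 4.85e-08), and the stages did not overlap. Next was si:ch211-112c15.8, from 6.43, 7.41 and 10.2 CPM to 0.065, 0.231 and 1.1 CPM, which fell by 4.83 ± 0.40 (adjusted p = 5.81e-09). The gene si:dkey-220k22.3 fell by 4.40 ± 0.49 (adjusted p = 2.43e-07). All 3 were at low levels in both genotypes at 24 hpf. The p-values here and below are for genes chosen partly by their level at 3.3 hpf, which favours falls.

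Receptor and channel genes were among those that fell. For gnrhr2 mutant libraries were at 1.41, 1.59 and 3.33 CPM at 3.3 hpf and at 0, 0.065 and 0.236 CPM at 24 hpf, a fall by 3.97 ± 0.51 (adjusted p = 1.4e-06). For gipr they were at 0.365, 0.618 and 0.883 CPM at 24 hpf, and the level fell by 3.77 ± 0.49 (adjusted p = 1.66e-06). CACNA1H fell by 3.68 ± 0.51 (adjusted p = 3.54e-06) and GPR4 by 2.61 ± 0.26 (adjusted p = 7.53e-08). The hormone receptor genes galr1b and ghrhrb stood at the edge or short of a call. The log2 difference of galr1b was -1.0 ± 0.42 (adjusted p = 0.0355), just at the limit of 1, and that of ghrhrb was -0.46 ± 0.48 (adjusted p = 0.378). Without single libraries the call of galr1b was lost in 6 of 14 cases, at mutant replicates 2 and 6 at 3.3 hpf and 1, 4, 5 and 6 at 24 hpf (adjusted p from 0.0204 to 0.0846 over all 14). It was also lost with the replicate number as a block (adjusted p = 0.0649), without libraries with over 5% antisense counts (0.0702) and without libraries labelled mutant that had ezh2 over 100 CPM (0.215). With DESeq2 and with the sense-strand counts its log2 difference was just short of the limit of 1, so the call was lost there too.

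Of the other genes with high early levels, TMEM132D fell by 3.25 ± 0.44 (adjusted p = 3.1e-06), tnfsf10l3 by 3.05 ± 0.49 (2.24e-05), CBLN4 by 3.03 ± 0.46 (1.07e-05) and MEGF11 by 2.48 ± 0.43 (4.42e-05). The interferon gene ifit8 fell by 3.43 ± 0.42 (adjusted p = 8.93e-07). The change of ENSDARG00000055506 was called too, with a fall by 2.57 ± 0.93 (adjusted p = 0.0189), but here the order of libraries turned. Its replicates 1 and 2 were the lowest mutant libraries at 3.3 hpf (0 and 0.050 CPM) and the highest at 24 hpf (1.75 and 1.69 CPM). The call was lost without libraries labelled mutant that had ezh2 over 100 CPM (adjusted p = 0.306), without the libraries with much antisense signal (0.138), with replicates 1 and 2 set against the others as a term (0.0975) and with the replicate number as a block (0.172).

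By gene list, falls between 3.3 and 24 hpf were called for 4 of 8 ion channel genes among the 104, 2 of 4 G-protein coupled receptors of the list (GPR4 and gpr132b), 2 of 3 cytokine and immune genes (tnfsf10l3 and ftr98), both adhesion genes (ITGA11 and LRRTM4), 1 of 2 signalling ligands (SEMA4G) and 1 of 5 solute carriers (slc6a4b). They were called for 0 of 5 developmental transcription factors, of which only nkx3.3 was tested (-0.29 ± 0.55, adjusted p = 0.641), and for 0 of 2 neurotransmitter receptors, neither of which was tested. Of the 76 tested among the 104 genes, 49 were called lower, and of all genes tested 29.4% were. The 49 are 47.1% of all 104, a share that counts untested genes and is not like the 29.4%. The lists are too small for their shares to be told apart from these, and no such test was run. In all, 33 of the 104 genes were in one of 18 lists and 71 in none, and no Polycomb gene and no hemoglobin, crystallin or zinc finger gene of the lists was among them.

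**Figure D5:**
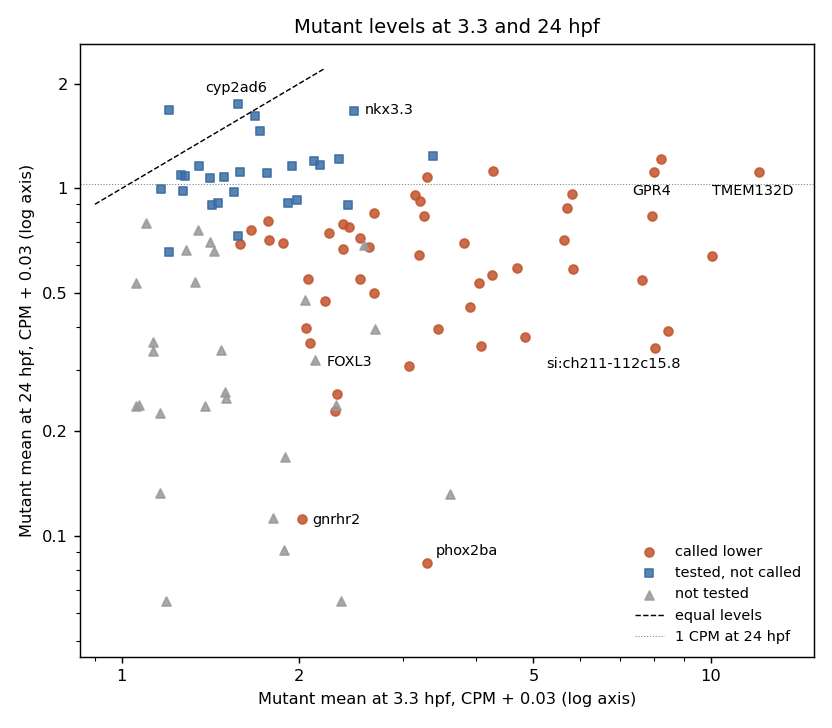
Mutant mean at 24 hpf against that at 3.3 hpf for the 104 genes, each as CPM + 0.03 on a log axis. Circles are the 49 genes called lower, squares the 27 tested and not called and triangles the 28 not tested; the dashed line marks equal levels and the dotted line 1 CPM at 24 hpf, under which 82 genes lie.

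At 24 hpf these genes had low levels in both genotypes. In mutants 82 of the 104 genes had a mean under 1 CPM, and 0 genes were at 1 CPM or more in all 7 mutant libraries. The rule asked for under 1 CPM only in wild type. That cap favours low mutant means too, as few of all genes were called different between genotypes at this stage. The mean was higher in mutants than in wild type for 76 genes and lower for 28, and the median ratio was 1.34, but the rule capped the wild-type mean at this stage, which favours ratios above 1. None of the 104 passed the edgeR test. With the filter on low counts 8 were tested and 0 were called, where 0.223% of all genes tested were called higher and 0.101% lower. At an unadjusted p under 0.05, 4 of the 8 were higher and 0 lower, beside 1344 of all 18806 genes tested in either direction. All 8 had a log2 change above 0, with a median of 0.789 against -0.013 over all genes tested. The cap on the wild-type mean favours that direction. So does the filter, which genes capped in wild type can pass mainly through their mutant libraries. Without the filter the median log2 change was 0.353 over the 104 genes and -0.001 over all genes. It was above 0 for 77 of the 104, against 49.9% of all genes. Without the filter all 104 were tested and 0 were called (0.152% and 0.0675% of all genes), with 13 higher and 1 lower at an unadjusted p under 0.05, against 3.77% and 2.59% of all genes. DESeq2 called 0 of the 79 genes to which it gave an adjusted p. Over all 104 genes, 14 had an unadjusted p under 0.05 by DESeq2, in either direction.

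The genes with the highest mutant means at 24 hpf were cyp2ad6, si:ch73-304f21.1, nkx3.3, mxg, kcnj19b, PLA2G4A, GPR85 and MEGF11, with 1.18 to 1.71 CPM. For cyp2ad6 the mutant libraries were at 0.709, 1.39 and 3.29 CPM at the lowest, median and highest, and wild type at 0.107, 0.743 and 1.59 CPM. For nkx3.3 they were at 0.731, 1.75 and 2.77 CPM, and wild type at 0.317, 0.728 and 1.59 CPM. The genotypes overlapped in both cases, and the log2 difference of nkx3.3 was 1.04 ± 0.39 without the filter (SE, unadjusted p = 0.0148). For mxg, of the interferon-induced Mx family, the mutant median was 1.64 CPM and that of wild type 0.745 CPM.

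FOXL3 was the only gene of the 104 whose mutant libraries at 24 hpf were all above those of wild type, where 0.449% of all genes with a read had that order. It had 2 reads in wild-type replicate 1 (0.105 CPM) and 0 in the other 5 libraries, and 0.115, 0.236 and 0.731 CPM at the lowest, median and highest mutant library. It was measured at a few reads per library, and its test without the filter gave an unadjusted p of 0.00248 and an adjusted p of 0.303. In the other direction phox2ba was lower in mutants, at 0, 0.052 and 0.130 CPM against 0.107, 0.291 and 0.793 CPM, a log2 difference of -2.23 ± 0.68 (unadjusted p = 0.00394, adjusted p = 0.361). Neither difference passed the correction over all genes.

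Most of the 104 genes had their highest wild-type mean at 24 hpf, still under the limit of 1 CPM that the rule set. The wild-type mean at 24 hpf was above that at 3.3 hpf for 83 genes, and for 13 all wild-type libraries at 24 hpf were above all those at 3.3 hpf, where 25.3% of all genes with a read had that order. The median over genes of the wild-type mean was 0.222 CPM at 0 hpf, 0.213 CPM at 3.3 hpf and 0.447 CPM at 24 hpf, and in mutants it was 2.26, 2.07 and 0.662 CPM. Across the genes, the mutant and wild-type means at 24 hpf had an r of 0.722, and the mutant means at 3.3 and 24 hpf an r of 0.081.

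The limits of the rule cut through a continuous range of genes. Just inside were RHCG, an ammonium transporter gene, with a lower early mutant mean of 1.03 CPM, TMC8 with a mutant to wild-type ratio of 4.00 and ITGA11, an integrin gene, with a wild-type mean of 0.999 CPM at 3.3 hpf. Just outside were ZNF521 with an early mutant mean of 0.986 CPM, fbxl3l with a ratio of 3.99 and LAYN with a wild-type mean of 1.00 CPM. Another 518 genes met every part of the rule except the limit on wild-type embryos at 24 hpf. The 104 genes were spread over the genome. The 68 found in the RefSeq table were all protein coding and lay on 23 chromosomes with at most 6 on one, 6 pairs were within 10 genes of each other in the gene list, and 2 genes were within 100 genes of ezh2. For 70 of the 104 under 5% of stranded early mutant counts were antisense, and for 3 more than 20% were, namely si:ch211-253b8.6 (20.9%), gata2b (33.5%) and kcnj19b (39.1%).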

How the data were processed

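Read counts per gene were deposited by the authors for 36 RNA libraries. Per the study's methods, they were made with the gene counting of STAR against GRCz10 and Ensembl annotation 87; STAR 2.5.2b is named in the submitters' processing notes. The unstranded counts were used here, with summary lines left out, and the sense and antisense counts served as checks. Levels are CPM of gene counts. Library totals ranged from 2736282 to 24041447 counts. The smallest level taken as a bound was 3 reads over a group. The authors also deposited ChIP-seq peak lists, which were not used because no gene coordinates of their build were used here, and no sequences were printed.

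Groups follow the labels. The members and gene lists were chosen with earlier results of these data known. Comparisons within mutants and between genotypes at 24 hpf were fitted across all genes with edgeR 4.0.16 (R 4.3.3; TMM, filter on low counts, robust quasi-likelihood F test, 2-sided, Benjamini-Hochberg), called at an adjusted p under 0.05 and a log2 change of at least 1. Standard errors are the log2 change over the square root of F. Contrasts used by the rule were fitted too, for background shares and for counts given as a description. Tables and plots were made with Python 3.11.15, pandas 2.3.3, numpy 2.4.6 and matplotlib 3.10.9. The scripts were tested on simulated counts. Alternatives were DESeq2 1.42.0, no filter, sense counts, no TMM, a replicate block, batch terms, other limits of the rule and leaving out libraries; leaving out libraries by antisense share or ezh2 level, and the term for replicates 1 and 2, were added after the data were seen. The rule for named genes took the 12 with the highest early mutant level, the 8 highest in mutants at 24 hpf, up to 4 per list and those at the edges of the rule; others were named for their role or value after values were seen.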

Additional observations from a re-analysis of the deposited data

How the results depend on the processing

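The number of members by the rule was 104, and it moved to 61 with 8 times the wild-type mean, to 58 with 6 libraries above all wild-type ones and to 65 without early mutant libraries with ezh2 under 100 CPM (54 shared with the 104), where the limit of 4 libraries was also changed to all 3 that remained per stage; leaving out 1 library gave 86 (without mutant 0 hpf replicate 2) to 110 (without wild-type 3.3 hpf replicate 5), and the other limits and scalings 73 to 139. The members under 1 CPM in mutants at 24 hpf were 82, and 35 with 0.5 CPM as the limit (79 to 84 without 1 library). The count of members lower in mutant 24 versus 3.3 hpf was 49, between 42 and 69 over the settings and 47 to 54 without 1 library, and the counts of 0 elsewhere stayed 0 in all settings run. The latter is a weak check, as some settings called few or no genes at all. Between genotypes at 24 hpf the filter left 8 members to test. Over single members called in mutant 24 versus 3.3 hpf, 1026 of 1072 values kept their call, 46 lost it and 0 reversed. Calls of AMPD3 (without mutant 3.3 hpf replicate 1) and DIO2 (without mutant 3.3 hpf replicate 5) rested on 1 library, and those of galr1b, NALF1, mvb12bb and si:ch211-63b16.3, which lay near the limits, were lost without any of 5 to 7 libraries. Using library totals without TMM shifted the median of all genes in that comparison by -0.22 (log2). With the replicate block the members called stayed 0 in mutant versus wild-type at 24 hpf and in mutant 3.3 versus 0 hpf, and were 45 lower in mutant 24 versus 3.3 hpf; replicate numbers did not pair the libraries throughout (correlations of same-numbered deviations from -0.149 for replicate 5 to 0.913 and 0.881 for replicates 1 and 2, all in mutant 3.3 versus 0 hpf, where 1, 2 and 3 of the 6 correlated best with their own number). Over all genes, calls at 24 hpf were 42 higher and 19 lower, against 77 and 59 with DESeq2, 57 and 37 with the block, 58 and 33 with replicates 1 and 2 as a term and 22 and 8 without mutant libraries with ezh2 over 100 CPM. For mutant 3.3 versus 0 hpf they were 78 and 117, against 248 and 181 with DESeq2, 118 and 112 without the filter, 69 and 210 with the block, 107 and 189 with replicates 1 and 2 as a term, 10 and 12 without libraries with over 5% antisense counts and 0 and 0 without mutant libraries with ezh2 over 100 CPM; the cause was not tested. Most levels rest on few reads, which limits single genes at 24 hpf most.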
